A study of Mus musculus with 12 samples.

Results

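RNA levels of 8 genes of the ETS family, Ets1, Ets2, Fli1, Erg, Elf1, Elf4, Etv6 and Elk3, were described in mouse bone marrow. The genes were taken by name from the 34745 genes of the deposited table, and all 8 passed the filter on low counts in each comparison. Ets1 was selected on its change between QJSB and model marrow, which the study lists, and the other 7 as its relatives, so that contrast is given for all 8 as a description without a test. The samples were femoral bone marrow cells of 12 male ICR mice, 3 per group, with 1 RNA library per mouse. The normal group received saline. The model group received cyclophosphamide, an alkylating drug that depletes dividing marrow cells, at 80 mg/kg/day on days 5 to 7 of 1 week, with saline by mouth. The QJSB group received the same cyclophosphamide. It was given Qi-Jing-Sheng-Bai granule, a Chinese herbal formula, by mouth at 3 g/kg/day for the whole week, so from before the cyclophosphamide. The leucogen group received the same cyclophosphamide and leucogen, a drug given for low white cell counts, by mouth at 20 mg/kg/day over the same week. All groups other than normal therefore shared the cyclophosphamide, and no group received QJSB or leucogen alone.

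The table names its columns Blank, Model, Positive and Stilbene. The samples' labels do not use Blank, Positive or Stilbene. These were taken to be normal, leucogen and QJSB, because of what the words mean and which groups remained, and every statement on these groups rests on that assignment. Library totals ran from 11172547 to 18545198 counts. The marrow of normal mice held the summed markers of erythroid cells at 11530 to 12940 CPM (read counts scaled to a common library size, here with TMM factors) and of late neutrophils at 10140 to 10670. In the 9 libraries of the mice given cyclophosphamide the erythroid sum was 72.2 to 729. Eosinophil sums were 1496 to 1843 in normal and 72.8 to 281 in the other groups, plasma cell sums 217 to 269 and 6.67 to 25.4, and monocyte and macrophage sums 379 to 473 and 341 to 834. Model 1 and QJSB 1 stood apart within their groups, with late neutrophil sums of 2017 against 5127 and 6289, and of 3295 against 18490 and 12460, and with stromal sums of 736.6 and 892.6 where the other libraries of these groups had 173 to 249. Where leaving out either of them changed the call of a member, this is given with the gene. Changes of sign are given with the gene or as ranges at the end.

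ETS factors are transcription factors that share a winged helix-turn-helix domain, the ETS domain, which binds DNA around a GGAA core. Ets1 and Ets2 are phosphorylated by Erk at the end of the Ras pathway and then recruit the coactivators Crebbp and Ep300. Ets1 is required for normal T, B and NK cell development. Fli1 and Erg are close relatives that act in stem cells, megakaryocytes and endothelium, where they bind together with Tal1, Lyl1, Lmo2, Gata2 and Runx1. Etv6 is a repressor needed for blood formation in the marrow. Elf1 and Elf4 act in lymphoid and myeloid cells, and Elk3 is a ternary complex factor that binds with Srf.

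The helix that enters the major groove of DNA is the most alike stretch of these proteins, and its coding sequence was compared base by base. The 42 bases that encode it are printed for the longest matching protein-coding transcript of each gene in GENCODE M21 (GRCm38), 5′ to 3′ on the coding strand. Capitals mark the bases that differ from Ets1.
Ets1: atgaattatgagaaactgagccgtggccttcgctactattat
Ets2: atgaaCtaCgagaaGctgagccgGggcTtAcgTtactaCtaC
Fli1: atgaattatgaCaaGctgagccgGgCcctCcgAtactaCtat
Erg: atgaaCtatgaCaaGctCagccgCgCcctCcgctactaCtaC
Elf1: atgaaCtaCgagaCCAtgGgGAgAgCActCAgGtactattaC
Elf4: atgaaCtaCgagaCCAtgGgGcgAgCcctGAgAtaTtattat
Etv6: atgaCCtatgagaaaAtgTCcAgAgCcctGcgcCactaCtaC
Elk3: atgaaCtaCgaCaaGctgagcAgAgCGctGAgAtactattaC

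Fli1 differed from Ets1 at 7 of these bases, Ets2 and Erg at 9, Etv6 and Elk3 at 12, Elf4 at 13 and Elf1 at 15. These counts do not order the proteins. The changes in Ets2 leave every encoded amino acid as in Ets1, whereas some of those in Fli1 do not. In Ets1 the stretch lies at chr9:32754252-32754293 on the plus strand, within exon 8 of 8. In Elf1 and Elf4 it is split over exons 7 and 8. The longest run of identical bases between any transcripts of a pair of members was 36 bases for Elf1 and Elf4, 29 for Ets1 and Erg and 22 for Fli1 and Erg. The genes lie in neighbouring pairs. Fli1 (chr9:32422204-32542861, minus strand) and Ets1 (chr9:32636221-32757820, plus strand) are 93.4 kb apart, and Erg (chr16:95359169-95586593, minus strand) and Ets2 (chr16:95702075-95721051, plus strand) are 115.5 kb apart. Elf1 (chr14:79481194-79582476, plus strand), Elf4 (chrX:48411046-48463132, minus strand), Etv6 (chr6:134035700-134270158, plus strand) and Elk3 (chr10:93247414-93311135, minus strand) lie apart from these.

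Ets1 was the member with the lowest levels in model marrow relative to normal. It had 92.4, 98.6 and 108 CPM in normal replicates 1, 2 and 3, and 27.6, 31.2 and 31.7 in model. In QJSB it had 73.3, 61.3 and 49.1 CPM, and in leucogen 65.4, 70.0 and 150.5. Every model library was below every library of the other 3 groups, and every QJSB library was below every normal library. The means were 99.6 ± 7.81 in normal, 30.2 ± 2.26 in model, 61.2 ± 12.1 in QJSB and 95.3 ± 47.8 in leucogen (SD, n = 3 each).

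**Figure D1:**
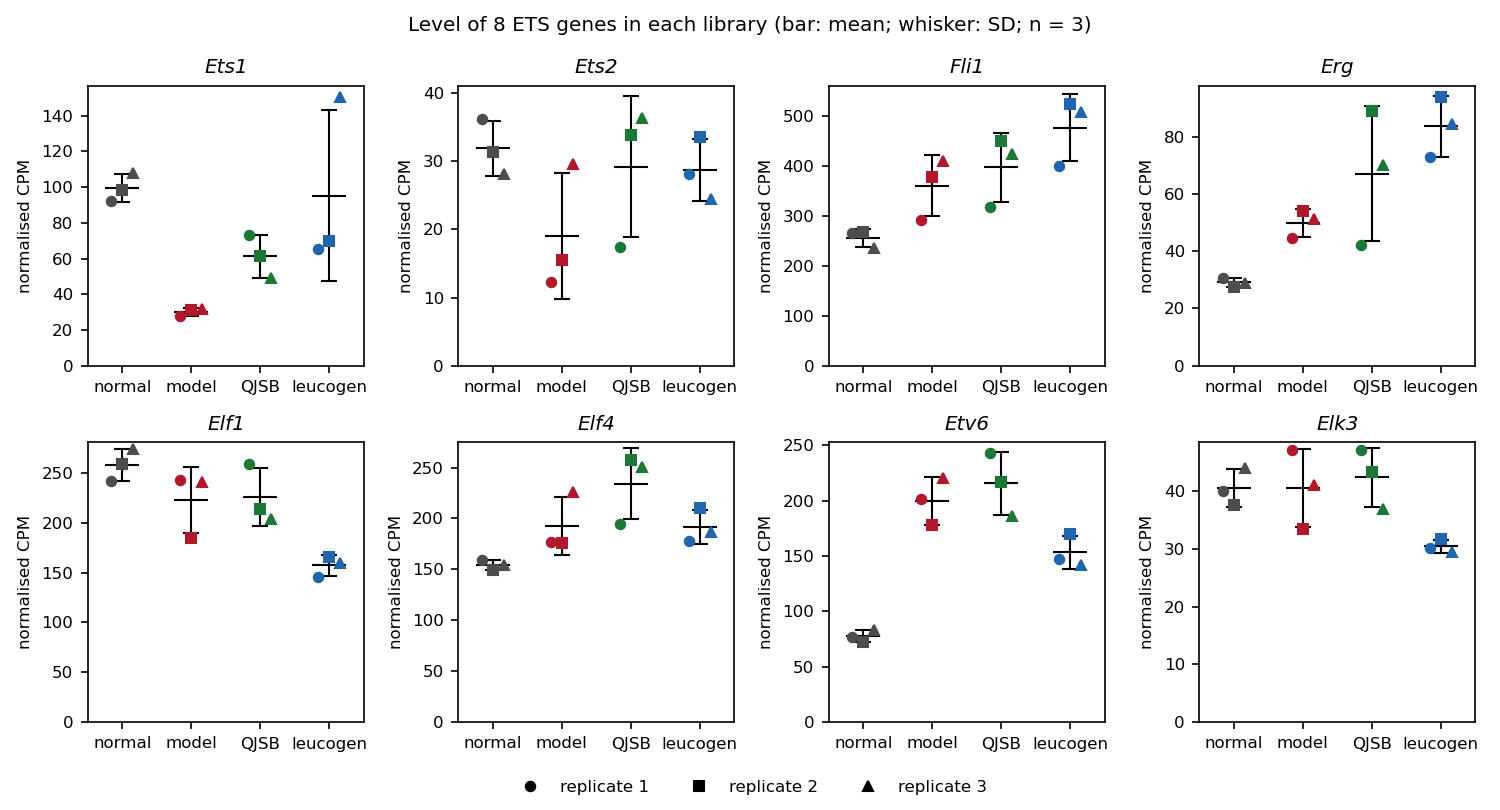
Normalised CPM of the 8 ETS genes in each of the 12 libraries, by group, with replicates as symbols, the group mean as a bar and the SD as whiskers (n = 3). The 3 model libraries of Ets1 sit between 27.6 and 31.7, below all other libraries of this gene, and leucogen replicate 3 is alone at 150.5.

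In the fit of model against normal, Ets1 fell by 1.72 on the log2 scale (SE 0.13, adjusted p = 4.18e-05). A gene was called when its p, adjusted over all genes tested, was under 0.05 and its fold change was over 1.5 in either direction (the fold cutoff). By this rule 3 of the 8 members were called, 2 higher and 1 lower in model, where 35.1% of all 14752 genes tested were called. The share of members called was therefore close to that of all genes. The libraries of 5 members were apart between the groups, beside 55.5% of all genes. The marrow is a mixture of cells, and fewer cells that hold Ets1 cannot be told apart from less Ets1 RNA per cell.

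Ets1 was 1.67 higher on the log2 scale in leucogen than in model (SE 0.32, adjusted p = 0.0103), with the libraries apart. The model libraries had a part in the selection of Ets1, as had the QJSB libraries, so the p of Ets1 in a comparison that uses either group is not independent of that selection. In leucogen against model 2 members were called, both higher in leucogen, beside 23.1% of all genes, and 5 had libraries apart, beside 46% of all genes. Leucogen replicate 3 carried much of the size of this change. Without it the log2 fold change was 1.17 (adjusted p = 0.0151), still past both cutoffs. Ets1 in leucogen 3 was 2.15 times the next highest leucogen library, a distance that 22 of 9468 genes with a mean of at least 10 CPM reached, or 0.232%.

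Against normal, Ets1 was lower in QJSB by 0.69 on the log2 scale (SE 0.16, adjusted p = 0.0109). The log2 fold change was -0.55 without QJSB replicate 3 (adjusted p = 0.0248), which is under the fold cutoff. In leucogen it was -0.05 from normal (SE 0.36, adjusted p = 0.928), a value that rests on leucogen 3. Without that library Ets1 was -0.55 from normal (adjusted p = 0.00408). Between QJSB and leucogen the log2 difference was -0.66 (SE 0.33, adjusted p = 0.174), and -0.16 without leucogen 3.

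In QJSB against model the fitted log2 difference of Ets1 was 1.01 (SE 0.19), with all 3 QJSB libraries above all 3 model libraries. It was 0.86 without QJSB 1 and 0.94 without model 1. In this contrast 0% of 14486 genes were called with the adjusted p by edgeR and 8 genes by DESeq2. The study's cutoff, an unadjusted p under 0.05 with the same fold, was passed by 446 genes, or 3.08%. The libraries were apart for 9.8% of all genes, and for 4.5% all QJSB libraries were above all model libraries. The other 7 members had overlapping libraries. Their log2 differences were 0.60 for Ets2, 0.41 for Erg, 0.26 for Elf4, 0.12 for Fli1, 0.09 for Etv6, 0.05 for Elk3 and 0.00 for Elf1. Some of these signs rested on model 1 or QJSB 1. Without model 1 the value of Fli1 was -0.0058. Without QJSB 1 the values were -0.106 for Elf1, -0.0021 for Etv6 and -0.033 for Elk3.

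Ets1 is abundant in lymphocytes, so the lymphoid marker lists were set beside it. The summed CPM of 10 T cell markers was 46.4 to 67.7 in normal, 9.99 to 19.7 in model, 8.59 to 17.0 in QJSB and 16.8 to 19.7 in leucogen. The sum of 8 pre-B markers was 956 to 1158 in normal, 20.1 to 218 in model, 9.55 to 47.0 in QJSB and 9.13 to 18.2 in leucogen. The sum of 7 mature B cell markers was 840 to 909, 10.2 to 32.4, 6.25 to 11.5 and 6.11 to 7.03 in the same order. Vpreb2 and Vpreb3 were at 0 in leucogen, as were Vpreb3 and Fcer2a in QJSB and Cr2 in leucogen. The lymphoid sums fell with Ets1 from normal to model, but the B lineage sums were lower, not higher, in most QJSB and leucogen libraries than in model, and the T cell sums of QJSB and of leucogen overlapped with those of model. Of the 5 T cell markers that could be tested in leucogen against model, 1 was higher and 1 lower, beside 23.1% of all genes called. Their median log2 fold change was -0.92. Cd3d, a part of the T cell receptor complex, was higher by 2.33 on the log2 scale (adjusted p = 0.0028). Its means were 16.5 CPM in normal, 2.14 in model, 5.69 in QJSB and 10.7 in leucogen, the order that Ets1 had. Its QJSB libraries spanned 1.4 to 11.2 CPM and overlapped with those of model, at 1.21 to 2.65. Among the other T cell markers only Cd28 had a higher mean in leucogen (3.95 CPM) than in model (1.66). Cd6 was lower by 1.71 on the log2 scale (adjusted p = 0.0481). The NK sum of 7 markers was 64.7 to 77.8 in normal and 104 to 126 in model, mostly through Nkg7, which also marks other granular cells. Without Nkg7, a split made after its values were seen, it was 43.9 to 58.0 in normal, 4.33 to 14.2 in model, 7.06 to 7.67 in QJSB and 8.70 to 31.6 in leucogen. The part of these cell types in the Ets1 levels was not tested.

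**Figure D2:**
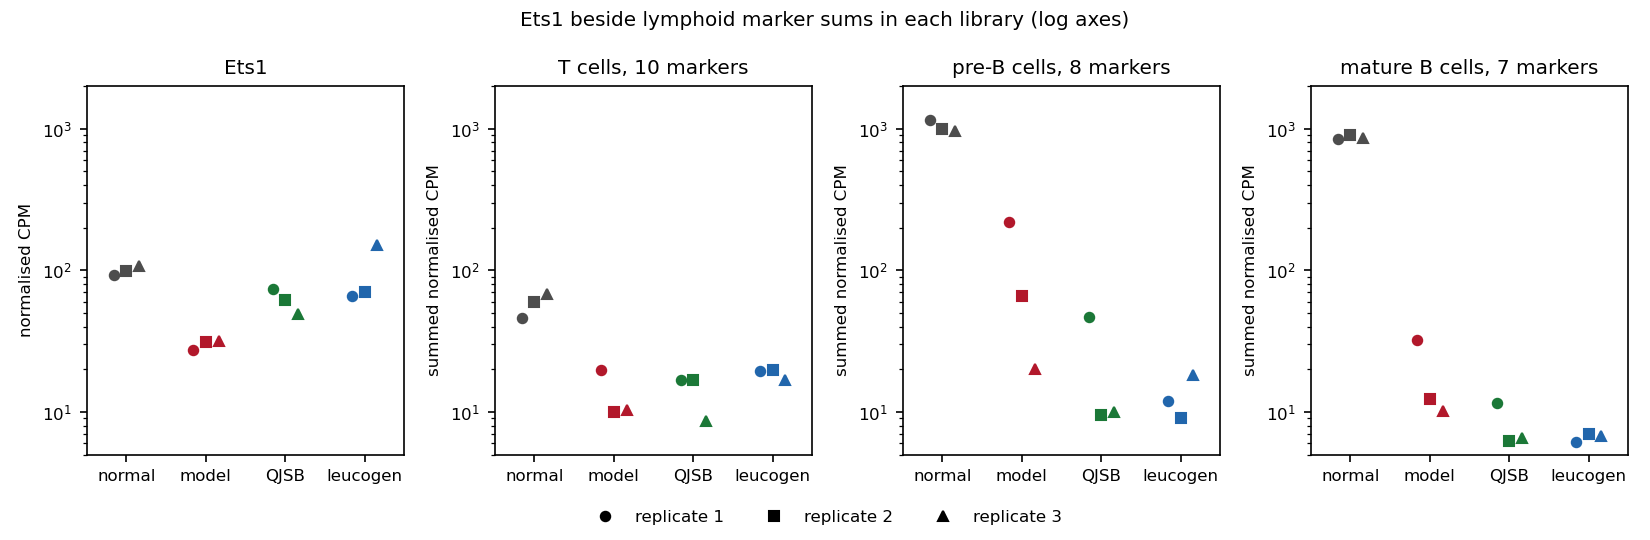
Ets1 (normalised CPM) and the summed normalised CPM of 10 T cell, 8 pre-B and 7 mature B cell markers in each library, on log axes. Ets1 was higher in all QJSB and leucogen libraries than in model, while the mature B cell sums there, at 6.11 to 11.5, were near or below the model sums of 10.2 to 32.4.

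Ets2, the closest paralogue of Ets1, had 36.2, 31.3 and 28.2 CPM in normal, 12.2, 15.4 and 29.6 in model, 17.4, 33.9 and 36.4 in QJSB, and 28.1, 33.6 and 24.5 in leucogen. The groups overlapped, and model 3 lay at the normal level. Ets2 was -0.74 in model against normal on the log2 scale (SE 0.31, adjusted p = 0.0927) and was not called. Without model 3 it was -1.20 (adjusted p = 0.00266), and in leucogen against model it was 1.09 (adjusted p = 0.0128) in place of 0.60 (adjusted p = 0.182). Its lowest library in model and in QJSB was replicate 1, which also had the lowest late neutrophil sum of the group.

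From normal to model, Etv6 moved opposite to Ets1. It had 76.6, 72.5 and 83.0 CPM in normal, 201, 177 and 220 in model, 243, 217 and 186 in QJSB, and 147, 170 and 142 in leucogen. All 9 libraries of the mice given cyclophosphamide were above all normal libraries, and all leucogen libraries were below all model and QJSB libraries. Etv6 rose by 1.37 on the log2 scale in model (SE 0.13, adjusted p = 0.000106), by 1.49 in QJSB (adjusted p = 0.000135) and by 1.01 in leucogen (adjusted p = 1.88e-05), each against normal. In leucogen it was -0.38 from model (adjusted p = 0.0716), which was not called. Per length of annotated exon, Etv6 was 1.04 to 1.18 times Ets1 in normal, 8.07 to 10.3 times in model, 4.70 to 5.38 times in QJSB and 1.34 to 3.44 times in leucogen. These ranges did not overlap between any groups. Between QJSB and model the libraries of Etv6 itself overlapped. Ets1 was selected on that contrast, so the separation of the ratio there is not independent of the selection. The summed CPM of 5 promyelocyte markers was 740 to 950 in normal, 6590 to 9478 in model, 8127 to 8966 in QJSB and 3449 to 4562 in leucogen, so that it was lowest in normal and next lowest in leucogen, as Etv6 was. Its part in the Etv6 levels was not tested.

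Erg, a factor of stem cells and endothelium, had 30.7, 27.6 and 28.9 CPM in normal, 44.5, 54.1 and 51.3 in model, 42.1, 89.1 and 70.1 in QJSB, and 72.7, 94.0 and 84.3 in leucogen. All libraries of the 3 groups given cyclophosphamide were above normal. Erg rose by 0.78 on the log2 scale in model (SE 0.14, adjusted p = 0.00229), by 1.22 in QJSB (adjusted p = 0.00618) and by 1.54 in leucogen (adjusted p = 2.47e-06) against normal. It was also 0.75 higher in leucogen than in model (SE 0.15, adjusted p = 0.0092). With total counts in place of TMM scaling this last value was 0.58, under the fold cutoff. QJSB 1 was the lowest QJSB library of Erg, Fli1, Ets2 and Elf4.

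Fli1, which drives megakaryocyte development, had 267, 268 and 236 CPM in normal, 293, 379 and 411 in model, 319, 450 and 424 in QJSB, and 400, 525 and 509 in leucogen. It was above all normal libraries in each of the other groups. Fli1 rose by 0.91 on the log2 scale in leucogen (adjusted p = 7.79e-05) and by 0.64 in QJSB (adjusted p = 0.0106) against normal. In model the log2 difference was 0.49 (SE 0.15, adjusted p = 0.0296), which passed the p threshold but not the fold cutoff, and it was 0.63 without model 1. Over the 12 libraries Fli1 and Erg correlated at r = 0.956 on log2 CPM, the highest value of any pair of members, whereas Ets1 and its neighbour Fli1 correlated at -0.097. These values are descriptions, since libraries of a group share their treatment.

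The marker sums of cells known to hold Fli1 and Erg did not order the groups as these genes did. The stem and progenitor sum of 9 markers was 175 to 204 in normal, 279 to 459 in model, 279 to 445 in QJSB and 193 to 209 in leucogen. The endothelial sum of 10 markers was 41.0 to 43.5, 72.9 to 95.5, 84.9 to 98.1 and 46.6 to 80.7 in that order. The megakaryocyte sum of 9 markers overlapped between all groups, at 123 to 462. Erg and Fli1 had their highest group means in leucogen, where the stem and progenitor sum lay near normal. Kit and Flt3 were the highest markers of that sum, and Flt3 had 113 CPM in model and 30.8 in leucogen. In leucogen against normal 2 of the 9 markers were called, both higher, beside 37.7% of all genes. They were Hlf, from 7.63 to 16.8 CPM (adjusted p = 0.00843), and Hoxa9, from 5.09 to 10.9 (adjusted p = 0.00839). The late neutrophil sum had its highest median in leucogen, at 14340 to 18390. The part of cell composition was not tested.

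Elf1 had 242, 259 and 275 CPM in normal, 243, 185 and 241 in model, 259, 214 and 204 in QJSB, and 146, 166 and 160 in leucogen. The leucogen libraries were below all others. Elf1 fell by 0.70 on the log2 scale in leucogen against normal (adjusted p = 9.3e-05). Against model the log2 difference was -0.50 (adjusted p = 0.0356), past the p threshold but under the fold cutoff, and it was -0.67 with total counts in place of TMM scaling. With 1 library left out the adjusted p was 0.0104 to 0.133, over the threshold in 5 of 6 fits, and it was 0.078 with the replicate number as a block, so this value passed the threshold only in part of the fits. Elf1 in model was -0.21 from normal (adjusted p = 0.254). Wbp4, a gene on the opposite strand that overlaps Elf1, had 25.8 to 34.8 CPM over all libraries.

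Elf4, which regulates stem cell quiescence and NK cell function, ranged from 150 to 159 CPM in normal, 176 to 226 in model, 194 to 258 in QJSB and 178 to 210 in leucogen. Normal libraries were below all others. Elf4 rose by 0.62 on the log2 scale in QJSB against normal (adjusted p = 0.00694). In leucogen it was 0.33 from normal (adjusted p = 0.00842) and in model 0.33 (adjusted p = 0.0793), both under the fold cutoff. Elf1 and Elf4, the pair with the longest shared run of bases, thus had a different order over the groups.

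Elk3 ranged from 33.5 to 47.1 CPM over the normal, model and QJSB groups and from 29.5 to 31.7 in leucogen, below all libraries of the other groups. Its log2 difference was -0.39 from normal in leucogen (adjusted p = 0.00975), under the fold cutoff, and -0.41 from model (adjusted p = 0.0868). In model it was 0.01 from normal (adjusted p = 0.981). Over the 12 libraries Elk3 correlated with Elf1 at r = 0.886.

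Counted over the comparisons with normal, 4 members were called in leucogen, 3 higher and 1 lower, beside 37.7% of all genes, and 5 in QJSB, 4 higher and 1 lower, beside 37.9%. The libraries were apart for 6 members in leucogen, beside 61.8% of all genes, and for 5 in QJSB, beside 58.1%. Both comparisons share the normal libraries. The QJSB count was 3 without QJSB replicate 2 or 3. In QJSB against leucogen no member was called by edgeR, by DESeq2 or with an unadjusted p under 0.05 at the same fold, beside 24.6% of all genes, while 3 members passed the adjusted p threshold alone, as did 29.3% of all genes. The log2 difference was 0.50 for Elf1 (SE 0.14, adjusted p = 0.0271), 0.47 for Etv6 (adjusted p = 0.0381) and 0.46 for Elk3 (adjusted p = 0.0381), each with all QJSB libraries above all leucogen libraries. Libraries were apart for 48.8% of all genes.

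**Figure D3:**
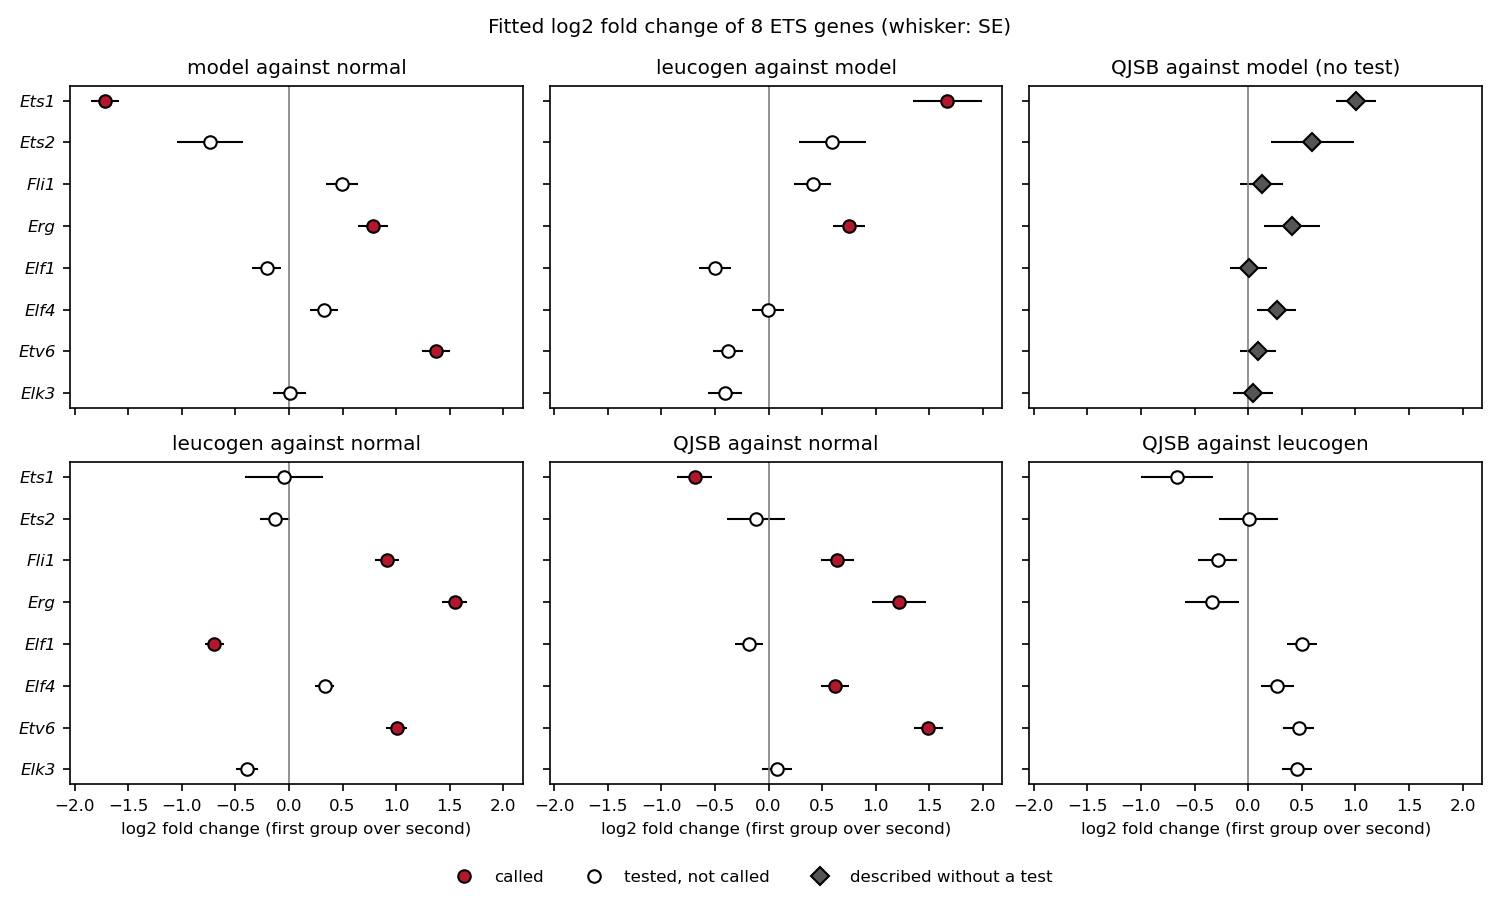
Fitted log2 fold changes of the 8 ETS genes in 6 comparisons, with the SE as whiskers. Filled circles were called, open circles were tested and not called, and diamonds in QJSB against model are described without a test. Ets1 is at -1.72 in model against normal and at 1.67 in leucogen against model, while Etv6 and Erg lie to the right in every comparison with normal.

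Levels of different genes can be compared only per length, here as CPM per kb of annotated exon. In normal marrow the order was Fli1 at 73.7, Elf1 at 38.4, Elf4 at 25.1, Etv6 at 12.9, Ets1 at 11.8, Elk3 at 8.91, Erg at 8.39 and Ets2 at 5.52 CPM per kb. Etv6 and Ets1, and Elk3 and Erg, overlapped between libraries. In model marrow Etv6 (33.4), Elf1 (33.1) and Elf4 (31.4) overlapped just after Fli1, and Ets1 (3.56) overlapped with Ets2 (3.30) at the bottom. In QJSB Elk3 (9.33), Ets1 (7.22) and Ets2 (5.06) overlapped as neighbours. In leucogen Ets1 was at 11.2, above Elk3 and Ets2, and Erg was at 24.1, overlapping with Etv6 and Elf1. Fli1 was first in all 4 groups. The length behind the deposited FPKM differed from the annotated exon length, most of all for Erg (9156 against 3466 bases), so FPKM gives Erg a lower level. It was 10673 against 5983 bases for Etv6, 10913 against 6148 for Elf4 and 11721 against 8476 for Ets1. For Elf1 it was 6605 against 6737, so FPKM places Etv6 and Elf4 lower beside Elf1. The order of genes, the ratio of Etv6 to Ets1 and the shares of the ETS family therefore depend on the length used.

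**Figure D4:**
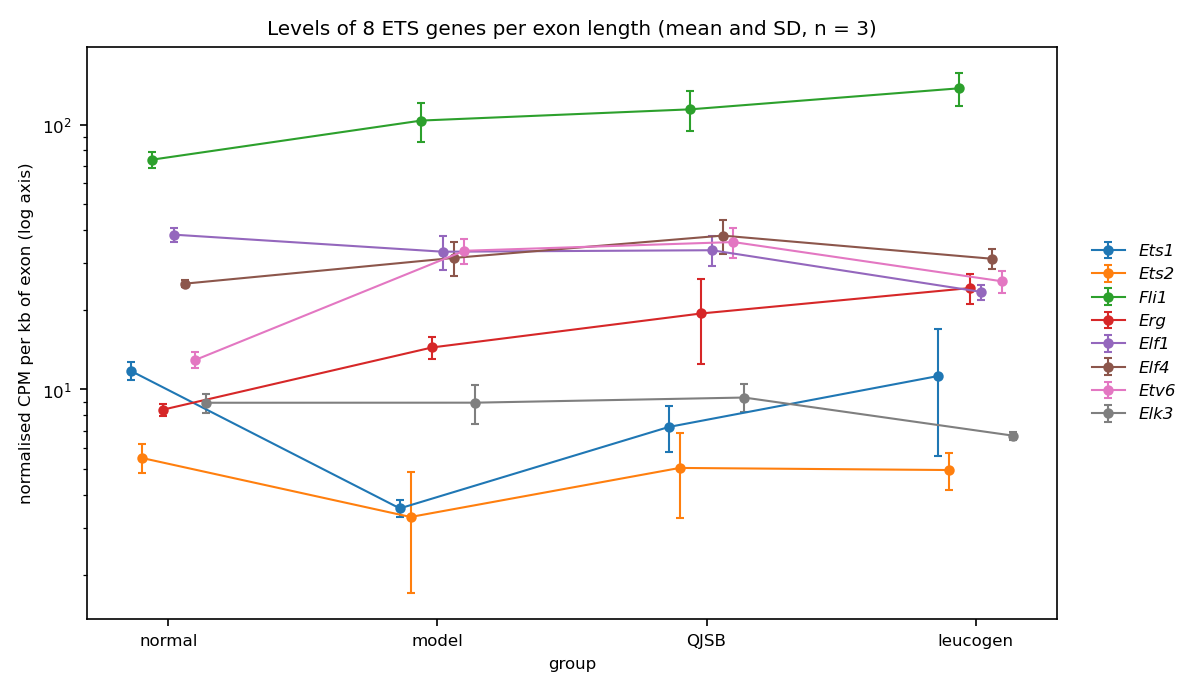
Normalised CPM per kb of annotated exon for the 8 ETS genes in each group (mean and SD, n = 3), on a log axis. Fli1 is first in every group, from 73.7 in normal to 137 in leucogen, Etv6 moves from 12.9 to 33.4 between normal and model, and Ets1 moves from 11.8 to 3.56.

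The 8 genes together made up 51.9 ± 0.69% of the summed level per kb of 27 ETS genes in normal marrow, 67.4 ± 0.65% in model, 64.6 ± 0.60% in QJSB and 67.8 ± 2.37% in leucogen (SD, n = 3). Fli1 alone was 20.7%, 30.1%, 27.9% and 35.1% of that sum. Ets1 was 3.30% in normal, 1.04% in model, 1.80% in QJSB and 2.88% in leucogen. The mean sum of the 8 was 184.7 CPM per kb in normal, 231.5 in model, 262.7 in QJSB and 264.2 in leucogen. That of all 27 was 355.8, 343.5, 406.9 and 389.3 in the same order. The shares thus also reflect the other ETS genes, of which Spib and Elk4 fell in model, as given below.

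Of the 19 other ETS genes, 11 could be tested in model against normal, and 1 rose and 4 fell, beside the 35.1% of all genes called in either direction. Their median log2 fold change was 0.02, as for all genes, where that of the 8 members was 0.17. Spi1 (PU.1), the main ETS factor of myeloid cells, rose by 0.89 on the log2 scale (adjusted p = 0.00646), from 63.5 to 117 CPM. Spib, a factor of B cells, fell from 122 to 3.13 CPM, and Etv5 from 11.1 to 2.98. Elk4, a ternary complex factor like Elk3, fell by 1.72 on the log2 scale (SE 0.13, adjusted p = 4.18e-05), from 306 ± 25.8 to 92.8 ± 8.52 CPM. It was 200 ± 34.1 CPM in QJSB and 160 ± 26.7 in leucogen. As for Ets1, all model libraries of Elk4 were below all others. The QJSB and leucogen means of Elk4 lay between those of model and normal. It was 0.79 higher in leucogen than in model (adjusted p = 0.00882), and 1.09 higher in QJSB than in model, with the libraries apart and an adjusted p of 0.767. In leucogen against model 1 of 11 other ETS genes rose and 1 fell, which was Erf, an Erk-regulated repressor, from 14.2 to 6.31 CPM, beside 23.1% of all genes. Against normal 1 of 12 rose and 4 fell in leucogen, beside 37.7% of all genes, and 2 of 11 rose and 4 fell in QJSB, beside 37.9%.

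Of the 5 partners of Fli1 and Erg, 1 was called in model against normal, beside 35.1% of all genes. It was Tal1, which is also an erythroid factor and fell from 356 to 27.3 CPM. The median log2 fold change of the 5 was -0.65. Runx1 was 222 CPM in normal, 221 in model and 216 in QJSB, and it was 0.61 higher on the log2 scale in leucogen than in model (adjusted p = 0.0112), at 335 CPM. In QJSB against normal Lmo2 and Tal1 fell and Lyl1 rose by 0.59 (adjusted p = 0.00283), just past the fold cutoff, and in leucogen against normal Tal1 and Gata2 fell and Runx1 rose. In QJSB against leucogen Runx1 was lower by 0.65 on the log2 scale (adjusted p = 0.0161).

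Among 12 cofactors and DNA-binding partners, 1 rose and 3 fell in model against normal, beside 35.1% of all genes called, with a median log2 fold change of -0.01. Pax5, which binds DNA with Ets1 in B cells, fell from 281 to 7.03 CPM, and Gata1 fell from 58.2 to 3.63. The coactivator Crebbp fell by 0.70 on the log2 scale (adjusted p = 0.00168), and Srf, the partner of Elk3 and Elk4, rose by 0.77 (adjusted p = 0.0138). In leucogen against model 1 of 12 was called, Sp100, which binds Ets1 and was higher by 0.63 (adjusted p = 0.0153), beside 23.1% of all genes. Against normal 2 rose and 2 fell in leucogen and in QJSB alike, beside 37.7% and 37.9% of all genes.

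Of 15 genes of the Ras and Erk pathway, 3 fell in model against normal and the other 12 were not called, where 35.1% of all genes were, and their median log2 fold change was -0.23. Dusp6, the Erk phosphatase that is itself induced by Erk signalling, fell by 2.11 on the log2 scale (adjusted p = 1.51e-05). It had a mean of 92.4 CPM in normal, 21.3 in model, 20.1 in QJSB and 32.7 in leucogen. Dusp5, another Erk phosphatase, fell by 1.69 (adjusted p = 0.0187). In leucogen against model Dusp6 rose by 0.63 (adjusted p = 0.0163), and the kinase gene Map2k2 fell by 0.69 (adjusted p = 0.0235). In QJSB against model, where edgeR called no gene of the table, the log2 difference of Dusp6 was -0.10 (adjusted p = 0.919). In QJSB against leucogen Dusp6 was lower by 0.72 (adjusted p = 0.0188). Against normal 1 gene of the list was higher and 3 were lower in leucogen, beside 37.7% of all genes called, and 3 were higher and 3 lower in QJSB, beside 37.9%.

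All 6 listed lymphocyte genes that are known to be regulated by ETS factors were called in model against normal, 5 lower and 1 higher, beside 35.1% of all genes, with a median log2 fold change of -1.99. Cd79a, a part of the B cell receptor, fell from 79.3 to 1.68 CPM, Il7r from 269 to 22.4 and Klf2 from 35.4 to 8.22. Klf4 rose by 1.28 on the log2 scale (adjusted p = 0.00224). In leucogen against model 4 of these genes could be tested and 1, Klf4, was called, lower by 0.69 (adjusted p = 0.0397). Il7r had a mean of 8.15 CPM in QJSB and 9.94 in leucogen, below its model mean of 22.4, whereas Ets1 was above its own. The Il7r libraries overlapped, at 9.17 to 37.3 CPM in model, 5.09 to 13.6 in QJSB and 8.41 to 11.9 in leucogen. Cd79a, Il7r, Il2rb and Prf1 are expressed mainly in lymphocytes, whose marker sums fell as given above. Against normal 5 of the 6 genes were lower and 1 higher in leucogen and in QJSB alike, beside 37.7% and 37.9% of all genes.

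Fli1 and Etv6 hold unspliced gene models inside their introns, on the same strand, that are counted separately in the table. They were looked at after their values were seen. They touch no annotated exon of Fli1 or Etv6. The libraries were made from ribosome-depleted total RNA, which can hold RNA over introns, and the models were taken to read it. Whether they are transcripts of their own was not tested. The 4 models in Fli1 were Gm37474 (chr9:32525145-32526958), Gm38346, Gm37082 and Gm38292. The 2 in Etv6 were RP23-434H14.8 (chr6:134073354-134075182) and RP23-434H14.7. How the counting treated reads that overlap a gene and such a model is not stated, so part of the counts of Fli1 and Etv6 is uncertain.

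The intron models of Fli1 did not follow the count of the gene. Gm37474 had 70.2, 66.4 and 60.6 CPM in normal, 48.1, 91.0 and 59.0 in model, 51.4, 58.0 and 73.6 in QJSB, and 146, 154 and 145 in leucogen. The first 3 groups overlapped, and leucogen was above all of them. Over the 4 models the log2 fold change of leucogen against model was 0.98 to 1.24 (adjusted p = 0.00285 to 0.0072), where Fli1 itself was 0.41. In model against normal they were -0.04 to 0.02 where Fli1 was 0.49.

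In Etv6 the intron models and the gene had the same sign against normal but differed in sign in leucogen against model. RP23-434H14.8 had 30.1, 28.9 and 25.4 CPM in normal, 52.5, 77.3 and 47.7 in model, 50.1, 43.3 and 55.0 in QJSB, and 119, 84.6 and 107 in leucogen. Both models rose from normal to model, by 1.04 and 1.08 on the log2 scale (adjusted p = 0.00322 to 0.00384), as the gene did. From model to leucogen they rose again by 0.81 and 0.82 (adjusted p = 0.016 to 0.0226), where the log2 fold change of Etv6 was -0.38.

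Such a rise was common to intron models in other genes. Of 523 models in introns of other protein-coding genes that could be tested in leucogen against model, 45.1% were called higher and 0% lower, with a median log2 fold change of 0.72. In QJSB against leucogen 63.6% of 528 were called lower. Summed over 569 models, the level was 8156 to 8815 CPM in normal, 4839 to 7151 in model, 4534 to 5777 in QJSB and 9988 to 11460 in leucogen. Relative to the gene that holds them, the median model was 0.57 higher in leucogen against model, with quartiles of 0.34 and 0.81. The models of Fli1, at 0.57 to 0.83, lay within these quartiles or just above, and those of Etv6, at 1.19 and 1.20, lay above them. The part of intron RNA in the counts of the 8 genes in leucogen was not tested, and model 2, the model library with the highest sum, was also the highest for all 6 models.

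**Figure D5:**
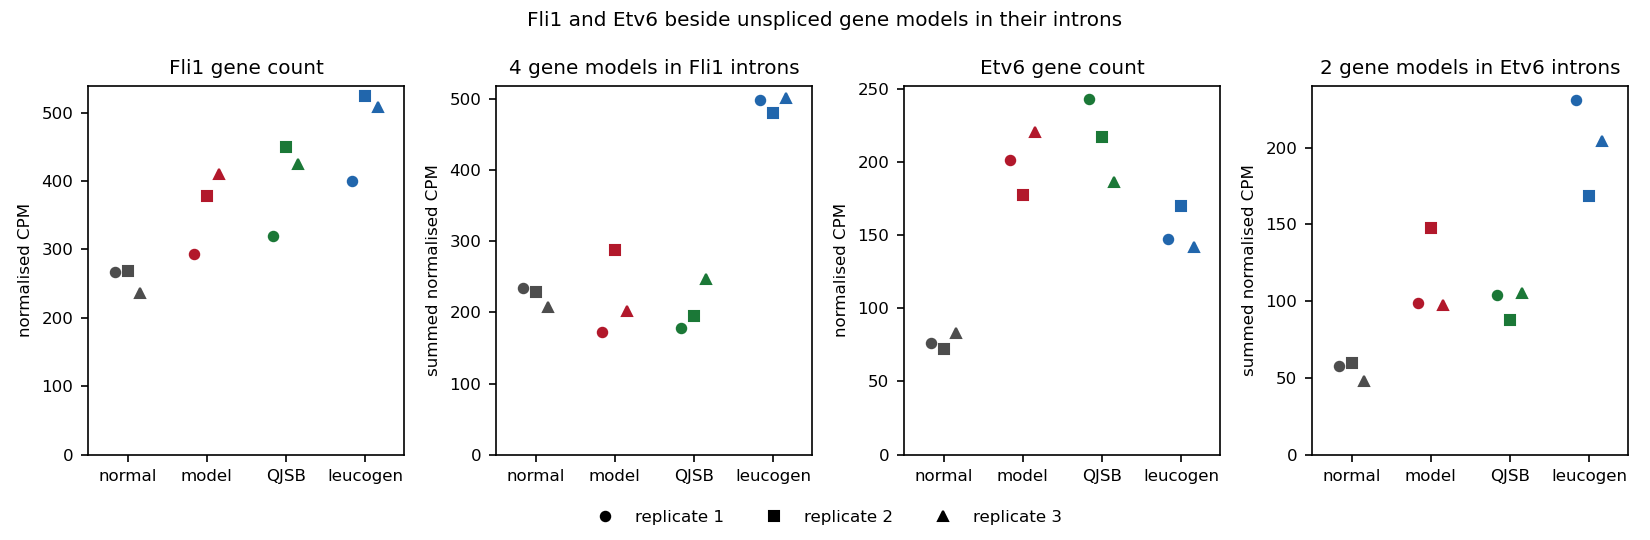
Normalised CPM of Fli1 and Etv6 and the summed normalised CPM of the 4 and 2 gene models in their introns, in each library. The intron models of both genes are highest in the 3 leucogen libraries, whereas the count of Etv6 is lower there than in model and QJSB.

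Over the 12 libraries, the genes whose log2 CPM was most like Ets1, among 9468 genes with a mean of at least 10 CPM, were Zfp608 (r = 0.89), Apc (0.888), Camk1 (0.885), Cpsf7 (0.866) and Gprasp1 (0.846). Each had its lowest group mean in model. Apc, a part of the complex that degrades beta-catenin, was 202 CPM in normal, 111 in model, 128 in QJSB and 177 in leucogen. The genes most like Fli1 were Gnai3 (0.982), Zdhhc2 (0.978), Itpripl2 (0.976), Gca (0.975) and Sp140 (0.975). Each had its lowest group mean in normal and its highest in leucogen, as Fli1 did, and Gca, which encodes the granulocyte protein grancalcin, went from 90.9 to 382 CPM. The genes were picked for their likeness over these same libraries, so the shared order of group means follows largely from that pick. The points of these correlations share their groups and libraries.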

How the data were processed

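RNA of femoral marrow cells of 12 mice, 3 per group, was sequenced by the authors from strand-specific libraries after removal of ribosomal RNA, and mapped with Hisat2 2.0.4 to GRCm38. The program that counted reads and the annotation are not given in the sources used here. The deposited table holds whole read counts per gene, not normalised, and FPKM that the authors computed from counts, transcript length and library total. Columns were matched to groups by their headings. The test was the robust quasi-likelihood test of edgeR 4.0.16 on counts, after filterByExpr and TMM scaling, in R 4.3.3, each pair of groups alone, with Benjamini-Hochberg adjustment over all genes tested. The test was tried on simulated data with known changes. Log2 CPM used a prior count of 2. Exon lengths, strands and sequences came from GENCODE M21.

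The members and lists were chosen with earlier results of these data known. There were 19 lists beside the ETS genes, 14 of them of cell type markers. All members were named, and from each other list up to 4 called genes per comparison with the largest fold change, of which the text gives those nearest to the members. The values of 1 listed gene are not reported here. For Ets1 and Fli1 the 5 most correlated genes were named.

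Samples of a number deviated together in QJSB and model (correlations of 0.103 to 0.453) and in QJSB and leucogen (0.11 to 0.174), which pairs them by the threshold of 0.1. In QJSB and leucogen every replicate was matched best by its own number, and in QJSB and model only replicate 1, at 0.453, was. Model 1 and QJSB 1 are the libraries that stood apart within their groups. The labels state no shared batch. The other comparisons had a correlation under 0.1 in at least 1 pair. Alternatives were DESeq2 1.42.0, its size factors in edgeR, total counts, no filter, all libraries in one fit, a replicate block, limma 3.58.1 on log2(FPKM + 0.1) and on log2(FPKM + 1), the study's cutoff, and each library left out. With 3 mice per group, p-values measure the spread between these mice.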

Additional observations from a re-analysis of the deposited data

Results flagged for a closer look

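The effects of QJSB and leucogen, each on top of cyclophosphamide, differed for 3 members in the direct test of QJSB against leucogen, though none passed the fold cutoff. In this comparison 29.3% of all genes passed the adjusted p threshold and 48.8% had libraries apart. Elf1 was 0.50 higher in QJSB on the log2 scale (edgeR adjusted p = 0.0271, higher in 3 of 3 QJSB libraries than in any leucogen library). Etv6 was 0.47 higher (adjusted p = 0.0381) and Elk3 0.46 higher (adjusted p = 0.0381), with the same separation. The adjusted p of Elf1 was 0.0964 and that of Etv6 0.151 without leucogen replicate 3. The direct test was not paired by replicate number. Over the 14 alternatives, among them a replicate block, the highest adjusted p was 0.106 for Elf1, 0.151 for Etv6 and 0.134 for Elk3. Each of the 3 was therefore over the threshold under some alternative. Leucogen and QJSB libraries also differed in their intron models, of which 63.6% were called lower in QJSB, and in the promyelocyte marker sum, at 8127 to 8966 CPM in QJSB and 3449 to 4562 in leucogen. The part of either in these differences was not tested.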

How the results depend on the processing

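Of 560 alternative values of the members' log2 fold changes in the 5 tested comparisons, 516 kept their direction and their side of the cutoffs, 9 lost and 11 gained the call, and 24 changed sign. In QJSB against model, described without a test, 12 of 112 values changed sign, of Fli1, Elf1, Etv6 and Elk3. The count of members called moved by over 1.5 times in QJSB against normal, from 5 to between 3 and 5 when a library was left out (3 without QJSB replicate 2 or 3), and in QJSB against leucogen, from 0 to 1 with total counts in place of TMM (Elf1, at 0.60). Total counts moved the median of all genes by over 0.1, from 0.02 to 0.14 in model against normal and from -0.05 to -0.22 in leucogen against model. Ets1, Erg and Etv6 were called in model against normal under all 14 alternatives. The sign changes in the tested comparisons were of values between -0.12 and 0.08. Elk3 in model against normal was -0.0025 with DESeq2, -0.0053 with its size factors, -0.0048 with the replicate block and -0.10 to 0.14 with a library left out. Elf4 in leucogen against model was 0.0092, 0.0162, 0.0026 and -0.0658 to 0.15 in the same order, and Ets2 in QJSB against leucogen -4e-04, -0.0109, -0.0536 and -0.19 to 0.27. With a library left out, Ets1 in leucogen against normal was -0.55 to 0.16, Ets2 in QJSB against normal -0.30 to 0.15 and Elk3 there -0.0081 to 0.17. The description of Ets1 in QJSB against model was 0.99 with the replicate block and 0.86 to 1.15 with a library left out. The block changed no other call of a member. Fli1 in model against normal passed the fold cutoff with total counts (0.61), with FPKM (0.60) and without model replicate 1 (0.63). In leucogen against model Erg lost it with FPKM (0.57 and 0.50), and Elf1 gained it there (-0.66 and -0.64) and without model replicate 2 (-0.59). In QJSB against normal Fli1 lost it without normal replicate 3 (0.58) or QJSB replicate 2 (0.55), and Elf4 with FPKM + 1 (0.58) and without QJSB replicate 2 (0.55) or 3 (0.57). The causes were not tested. Of 25 counts of called genes in the 5 other lists, 15 moved by over 1.5 times under some alternative, by 3 genes at most. Counting error is small at these depths, since the lowest Ets1 count was 440, so the 3 mice per group limit the precision.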
